A study of Mus musculus with 8 samples.

Results

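Purinergic signalling is the exchange of messages between cells through extracellular nucleotides and adenosine. The gene set described here holds 10 members, namely 3 enzymes (Entpd1, Nt5e and Ada), 5 nucleotide receptors or relatives of them (P2ry14, P2ry6, P2ry10, P2rx4 and P2rx7) and 2 adenosine receptors (Adora2a and Adora2b). They were taken by symbol from the rows annotated to exactly 1 gene, and 8 of the 10, each with a single row, were found among the 19938 genes measured. Adora2a and Adora2b were not analysed here.

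The arrays measured RNA of XCR1+ dendritic cells from the spleens of untreated reporter mice in which EYFP, a yellow fluorescent protein, marks Il12b expression. All cells had been sorted as lineage-negative, Bst2 negative or low, CD11c high and CD8α+, so that CD8α and not XCR1 defined the sort. The CCR7+Il12b+ fraction (n = 2) carried CCR7 and the reporter, the CCR7+Il12b- fraction (n = 3) carried CCR7 without the reporter, and the immature fraction (n = 3) carried neither. Both CCR7+ fractions are named homeostatically matured in the labels, and the sources used here give no age, background strain or number of mice per sample. The question posed by the series title is how far maturation in the absence of infection changes these cells.

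Dying, stressed or activated cells release ATP, which acts on P2X ion channels and, with its breakdown products and with UDP or UDP-sugars, on P2Y receptors coupled to G proteins. CD39, encoded by Entpd1, removes phosphates from ATP and ADP to leave AMP, CD73, encoded by Nt5e, turns AMP into adenosine, and adenosine deaminase, encoded by Ada, turns adenosine into inosine. In dendritic cells, ATP sensing by P2X7 is known for driving inflammasome activation, and adenosine acting through the receptors encoded by Adora2a and Adora2b is known for dampening inflammatory responses.

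Promoter windows of 250 bases before to 50 bases after a start site were taken from RefSeq (GRCm38.p6), which matched 8 of the 10 members. Those printed belong to Entpd1 and P2ry14, which fell together in both matured fractions, and to P2rx7 and P2rx4, neighbours on chromosome 5 that were called in opposite directions in CCR7+Il12b- cells. For genes with several start sites the first one listed is given, and capitals mark matches to TGANTCA, a sequence of the type bound by AP-1 factors.
Entpd1, chr19:40612116-40612415, forward strand: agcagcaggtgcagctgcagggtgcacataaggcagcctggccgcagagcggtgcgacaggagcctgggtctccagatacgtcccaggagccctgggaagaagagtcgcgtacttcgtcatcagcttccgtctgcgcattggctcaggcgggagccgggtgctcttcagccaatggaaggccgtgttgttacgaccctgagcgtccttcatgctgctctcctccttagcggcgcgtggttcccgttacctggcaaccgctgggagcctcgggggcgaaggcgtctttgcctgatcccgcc
P2ry14, chr3:59153443-59153742, reverse strand: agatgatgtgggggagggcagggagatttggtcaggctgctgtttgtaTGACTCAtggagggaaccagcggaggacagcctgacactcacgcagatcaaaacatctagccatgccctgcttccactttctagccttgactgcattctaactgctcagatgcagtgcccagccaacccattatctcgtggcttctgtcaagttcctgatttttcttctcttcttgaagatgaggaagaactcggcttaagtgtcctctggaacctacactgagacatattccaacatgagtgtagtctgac
P2rx7, chr5:122643677-122643976, forward strand: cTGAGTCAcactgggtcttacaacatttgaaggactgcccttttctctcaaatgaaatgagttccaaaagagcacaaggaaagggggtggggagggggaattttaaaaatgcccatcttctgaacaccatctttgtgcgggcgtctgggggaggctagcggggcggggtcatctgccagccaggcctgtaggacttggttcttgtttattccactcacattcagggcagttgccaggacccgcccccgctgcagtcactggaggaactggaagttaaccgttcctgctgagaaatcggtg
P2rx4, chr5:122707294-122707593, forward strand: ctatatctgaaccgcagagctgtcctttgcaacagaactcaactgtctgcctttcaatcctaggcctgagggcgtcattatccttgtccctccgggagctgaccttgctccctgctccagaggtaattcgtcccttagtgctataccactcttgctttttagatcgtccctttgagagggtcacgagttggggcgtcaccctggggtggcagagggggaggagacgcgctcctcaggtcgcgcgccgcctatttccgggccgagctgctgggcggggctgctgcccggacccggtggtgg

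A total of 6 motifs were searched on both strands of all 32817 mouse promoter windows of that table. TGANTCA was present in 7.81% of the windows, the NF-κB-type motifs GGGANTTTC and GGGAANTCC in 1.11% and 1.24%, the interferon-response-type motif GAAANNGAA in 8.55%, the cAMP-response motif TGACGTCA in 1.79% and the PU.1-type motif GAGGAAGT in 3.2%. Among the printed windows, TGANTCA began at position -202 from the P2ry14 start site and at position -249 from that of P2rx7. The other 5 motifs had no match in these 4 windows, and the windows of Entpd1 and P2rx4 held none of the 6. The marked matches do not overlap another motif searched. A match is a description of letters, and binding was not measured.

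Values are the deposited log2 expression values, and a difference of 1 stands for a 2-fold change. Array medians were 5.39 and 5.46 in CCR7+Il12b+, 5.36 to 5.41 in CCR7+Il12b- and 5.25 to 5.33 in immature samples. The sort was visible in the transcripts, since Ccr7 was at 12.77 and 12.46 in CCR7+Il12b+, 12.20 to 12.24 in CCR7+Il12b- and 8.50 to 8.86 in immature samples. Il12b transcript was also high without the reporter, at 12.35 and 12.22 in CCR7+Il12b+, 10.77 to 10.84 in CCR7+Il12b- and 6.88 to 7.11 in immature samples. Xcr1 was lower in both matured fractions, at 8.12 and 7.64 in CCR7+Il12b+ and 8.94 to 9.85 in CCR7+Il12b-, against 10.82 to 10.98 in immature samples. Replicate 3 of CCR7+Il12b- stood apart from its group on the first principal component, which carried 77.1% of the variance. It lay at 30.1 there, against 8.20 and 13.4 for the other CCR7+Il12b- samples and 52.2 and 53.6 for CCR7+Il12b+ samples. A background mark of 4.98 was set at the 95th percentile of the mean values of 1190 olfactory and vomeronasal receptor genes, which these cells are not known to use. Each gene of the table was tested with limma, with Benjamini-Hochberg adjustment over all 19938 genes, and was called at an adjusted p under 0.05.

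**Figure D1:**
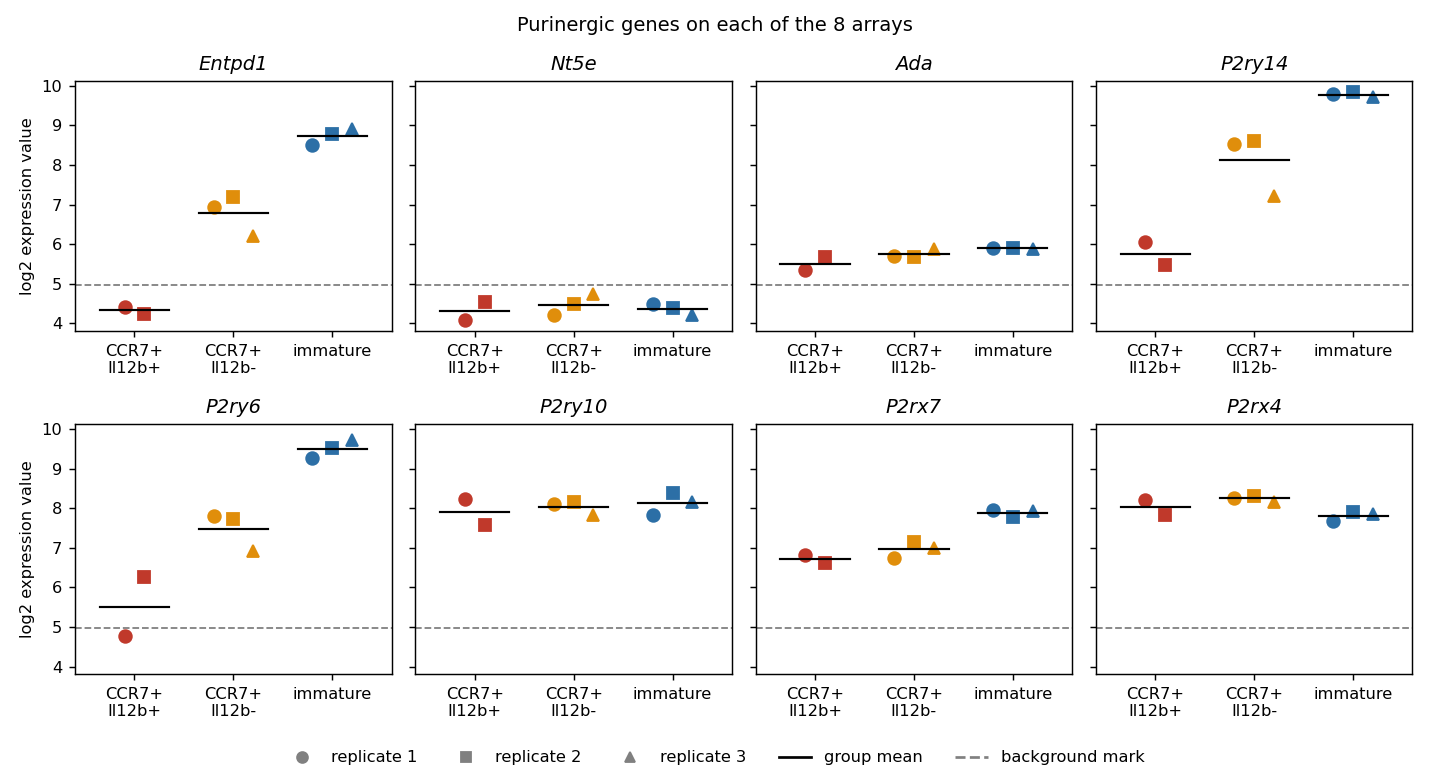
Log2 expression values of the 8 measured purinergic genes, 1 panel per gene, with a point for each array, a bar for the group mean and the background mark of 4.98 as a line. Entpd1, P2ry14 and P2ry6 form 3 separate levels with CCR7+Il12b+ lowest and immature highest, P2rx7 forms 2 levels, and Nt5e lies below the mark on every array.

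Among the members, 5 of 8 were called lower and 0 higher in CCR7+Il12b+ than in immature cells, namely Entpd1, P2ry14, P2ry6, P2rx7 and Ada. Over all genes 32.0% were called in this comparison, 17.9% lower and 14.1% higher. In CCR7+Il12b- against immature cells 4 of 8 were called lower (Entpd1, P2ry14, P2ry6 and P2rx7) and 1 higher (P2rx4), where 23.6% of all genes were called, 14.5% lower and 9.10% higher. Between the matured fractions 3 of 8 were called, all lower in CCR7+Il12b+ cells (Entpd1, P2ry14 and P2ry6), against 7.08% of all genes called, 4.47% lower and 2.61% higher. These 3 genes were thus called lower in each of the 3 comparisons, a pattern shared by 666 genes, or 3.34% of all genes. Of the 8 members, the samples of the 2 fractions did not overlap for 5 in CCR7+Il12b+ against immature cells (all lower), for 5 in CCR7+Il12b- against immature cells (4 lower and 1 higher) and for 3 between the matured fractions (all lower). The same was seen for 57.1%, 41.3% and 29.6% of all genes (23.6%, 19.2% and 14.3% lower, and 33.5%, 22.1% and 15.3% higher). Called falls of at least 1 log2 unit were found for 4, 3 and 3 members, beside 8.21%, 3.21% and 1.52% of all genes. The median difference of the 8 members was -0.78, -0.54 and -0.24 in the 3 comparisons, beside 0.09, 0.06 and 0.02 over all genes. The comparisons share samples and are not independent of each other.

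Entpd1 (chromosome 19), the enzyme that starts the breakdown of extracellular ATP, was strongly reduced in matured cells. It measured 4.42 and 4.24 in CCR7+Il12b+ samples, 6.93, 7.20 and 6.19 in CCR7+Il12b- samples, and 8.51, 8.79 and 8.90 in immature samples. No sample of 1 fraction overlapped with another, and both CCR7+Il12b+ samples lay below the background mark. The group means were 4.33 ± 0.13 in CCR7+Il12b+, 6.77 ± 0.52 in CCR7+Il12b- and 8.73 ± 0.20 in immature cells (SD, n = 2, 3 and 3). CCR7+Il12b+ cells fell below immature cells by 4.40 ± 0.24 on the log2 scale (SE of the limma fit; 95% confidence interval of the difference -4.94 to -3.86; adjusted p = 2.72e-07). Because the CCR7+Il12b+ mean is below the mark, this is given as at least 13.5-fold lower, counting a CCR7+Il12b+ array below the mark as being at it. CCR7+Il12b- cells were 3.89-fold lower than immature cells, a log2 difference of -1.96 ± 0.22 (limma, adjusted p = 9.66e-05). CCR7+Il12b+ cells were at least 3.47-fold lower than CCR7+Il12b- cells, a difference of -2.45 ± 0.24 (limma, adjusted p = 0.000331). In sorted populations measured in bulk, fewer cells carrying a transcript and less transcript per cell cannot be told apart.

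Nt5e (chromosome 9), the next enzyme of the chain, was below the background mark on all 8 arrays. Its values were 4.09 and 4.53 in CCR7+Il12b+, 4.21, 4.48 and 4.74 in CCR7+Il12b-, and 4.48, 4.39 and 4.21 in immature samples, so the fractions overlapped and no fold is given. The limma differences were -0.05 ± 0.18 for CCR7+Il12b+ minus immature (adjusted p = 0.858), 0.12 ± 0.16 for CCR7+Il12b- minus immature (adjusted p = 0.651) and -0.16 ± 0.18 between the matured fractions (adjusted p = 0.739).

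Ada (chromosome 2), which removes adenosine, lay above the mark in every sample and moved little. It measured 5.34 and 5.68 in CCR7+Il12b+, 5.70, 5.66 and 5.89 in CCR7+Il12b-, and 5.91, 5.90 and 5.88 in immature samples. Both CCR7+Il12b+ samples were below all immature samples, while the CCR7+Il12b- range overlapped with the CCR7+Il12b+ range and with the immature one. The CCR7+Il12b+ minus immature difference was -0.39 ± 0.13, or 1.31-fold lower (limma, adjusted p = 0.0436). That call was lost in 10 of 20 alternative settings, one of which left out CCR7+Il12b+ replicate 1 (difference -0.22, with 1 array left in that fraction). Ada did not pass the test in CCR7+Il12b- cells against immature cells (-0.15 ± 0.12, limma adjusted p = 0.416) or between the matured fractions (-0.24 ± 0.13, limma adjusted p = 0.393).

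P2ry14 (chromosome 3), the receptor for UDP-glucose and other UDP-sugars, was called lower in both matured fractions. It measured 6.04 and 5.46 in CCR7+Il12b+ samples, 8.54, 8.59 and 7.23 in CCR7+Il12b- samples, and 9.78, 9.83 and 9.70 in immature samples. The immature samples were tightly grouped, CCR7+Il12b- replicate 3 was the lowest of its group, and no fraction overlapped with another. CCR7+Il12b+ cells were 16.2-fold lower than immature cells, a log2 difference of -4.02 ± 0.34 (95% confidence interval -4.77 to -3.27; limma, adjusted p = 4.98e-06). CCR7+Il12b- cells were 3.15-fold lower than immature cells (-1.65 ± 0.30; limma, adjusted p = 0.00237). The CCR7+Il12b+ cells were 5.16-fold lower than the CCR7+Il12b- cells (-2.37 ± 0.34; limma, adjusted p = 0.00194).

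P2ry6 (chromosome 7), the receptor for UDP, followed the same order of fractions. It measured 4.76 and 6.26 in CCR7+Il12b+ samples, 7.80, 7.74 and 6.92 in CCR7+Il12b- samples, and 9.27, 9.52 and 9.71 in immature samples. The CCR7+Il12b+ samples differed widely, with replicate 1 below the background mark, and no fraction overlapped with another. With 1 of the 2 CCR7+Il12b+ samples above the mark, these cells were 15.9-fold lower than immature cells (-3.99 ± 0.38, 95% confidence interval -4.82 to -3.16; limma, adjusted p = 1.11e-05). CCR7+Il12b- cells were 4.04-fold lower than immature cells (-2.01 ± 0.34; limma, adjusted p = 0.00129). The difference between the matured fractions was -1.98 ± 0.38 (limma, adjusted p = 0.00965), and its call depended on CCR7+Il12b+ replicate 1. Without that sample it was -1.23, and the difference from immature cells was -3.24. Only 1 CCR7+Il12b+ array is left in that setting, so the spread of this fraction does not enter the fit.

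P2ry10 (chromosome X), a receptor of the P2Y family by sequence that is known to respond to lysophosphatidylserine, showed no order of fractions. It measured 8.23 and 7.57 in CCR7+Il12b+, 8.10, 8.16 and 7.82 in CCR7+Il12b-, and 7.83, 8.37 and 8.16 in immature samples. All 3 fractions overlapped. The limma differences were -0.22 for CCR7+Il12b+ minus immature (95% confidence interval -0.68 to 0.24; adjusted p = 0.457), -0.09 for CCR7+Il12b- minus immature (adjusted p = 0.768) and -0.13 between the matured fractions (adjusted p = 0.847). The interval of the first does not exclude a change of either sign.

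In these 3 falling genes the CCR7+Il12b- samples were uneven. Replicate 3, which lay nearest to the CCR7+Il12b+ samples on the first principal component, had the lowest Entpd1, P2ry14 and P2ry6 of its group. Without it, the CCR7+Il12b- minus immature differences were -1.67 for Entpd1, -1.21 for P2ry14 and -1.73 for P2ry6, and the differences between the matured fractions were -2.74, -2.81 and -2.26. All 6 remained called in limma.

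P2rx7 (chromosome 5), the ATP-gated channel that opens at high ATP, was lower in both matured fractions to a smaller extent. It measured 6.82 and 6.62 in CCR7+Il12b+, 6.75, 7.15 and 6.98 in CCR7+Il12b-, and 7.94, 7.79 and 7.93 in immature samples. The matured fractions overlapped with each other, and both lay below all immature samples. CCR7+Il12b+ cells were 2.25-fold lower than immature cells (-1.17 ± 0.14, 95% confidence interval -1.47 to -0.86; limma, adjusted p = 6.35e-05). CCR7+Il12b- cells were 1.90-fold lower (-0.93 ± 0.12, 95% confidence interval -1.20 to -0.65; limma, adjusted p = 0.000322). The difference between the matured fractions did not pass the test (-0.24 ± 0.14, 95% confidence interval -0.55 to 0.07; limma, adjusted p = 0.425).

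P2rx4 (chromosome 5), an ATP-gated channel that is found largely in lysosomes and opens at lower ATP than P2X7, was the only member called higher in any comparison. It measured 8.21 and 7.83 in CCR7+Il12b+, 8.27, 8.32 and 8.16 in CCR7+Il12b-, and 7.67, 7.91 and 7.84 in immature samples. The CCR7+Il12b- samples were above all immature samples, while the CCR7+Il12b+ samples overlapped with both. CCR7+Il12b- cells were 1.36-fold higher than immature cells (0.44 ± 0.13, 95% confidence interval 0.17 to 0.72; limma, adjusted p = 0.0252), a call lost in 7 of 20 alternative settings. One of them left out CCR7+Il12b- replicate 2, which gave an adjusted p of 0.0853 in limma. In CCR7+Il12b+ against immature cells the difference was 0.21 ± 0.14 (95% confidence interval -0.10 to 0.52; limma, adjusted p = 0.287), and it was called after cyclic loess (0.38, adjusted p = 0.0212) or quantile normalization (0.39, adjusted p = 0.0173). The matured fractions differed by -0.23 ± 0.14 (limma, adjusted p = 0.448).

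**Figure D2:**
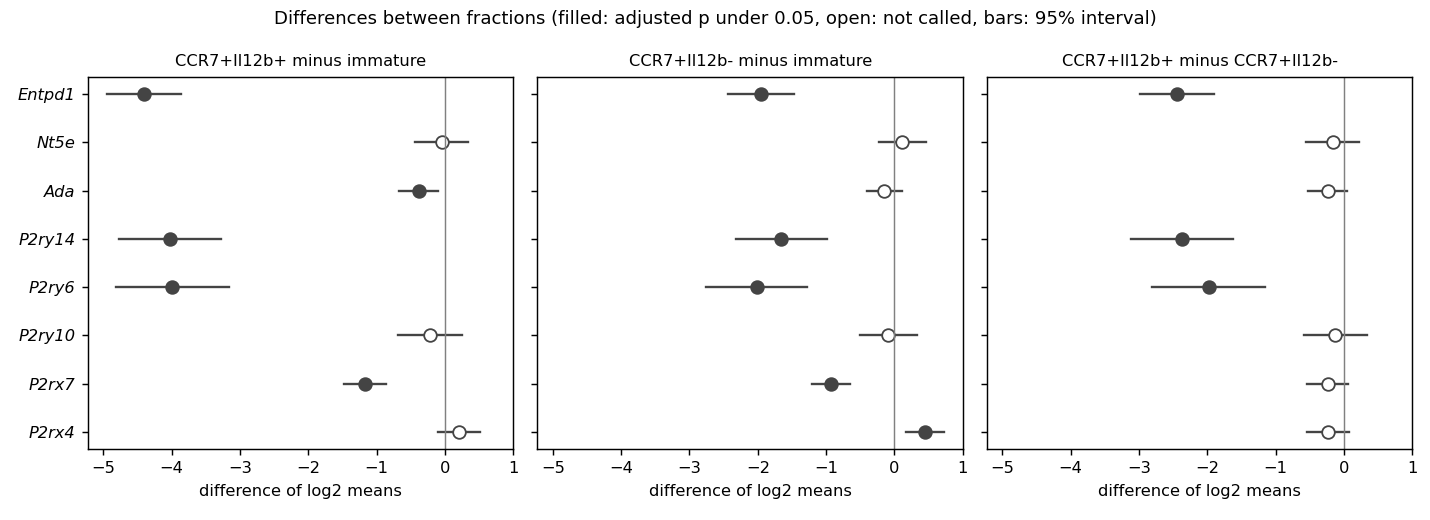
Log2 differences of the 8 measured genes in the 3 comparisons, as points with 95% confidence intervals from the limma fit, filled where called at an adjusted p under 0.05. Entpd1, P2ry14 and P2ry6 lie left of 0 in every comparison, between -4.40 and -1.65, and the interval of P2rx7 excludes 0 against immature cells but not between the matured fractions.

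Counted in either direction, other genes that handle nucleotides and adenosine were called against immature cells about as often as genes at large. In these comparisons their calls leaned further to lower than those of all genes, which was not tested. Of 78 further genes listed, 67 were measured and 42 had a group mean above the background mark. In CCR7+Il12b+ against immature cells 4 were called higher and 17 lower, which is 31.3% of the 67 and close to the 32.0% of all genes (14.1% higher and 17.9% lower). In CCR7+Il12b- against immature cells 5 were called higher and 14 lower, 28.4% against 23.6% of all genes (9.10% higher and 14.5% lower). Between the matured fractions 0 were called higher and 3 lower, 4.48% against 7.08% of all genes (2.61% higher and 4.47% lower).

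Of the 14 other P2X and P2Y receptors and their relatives, 4 were above the mark in a fraction. Gpr34, a lysophosphatidylserine receptor close to the P2Y family, had the largest called change of that list. It measured 5.10 and 4.74 in CCR7+Il12b+, 6.47, 6.14 and 5.28 in CCR7+Il12b-, and 7.48, 7.59 and 7.53 in immature samples, without overlap between fractions. It was at least 5.65-fold lower in CCR7+Il12b+ than in immature cells (limma, adjusted p = 2.25e-05) and 2.98-fold lower in CCR7+Il12b- than in immature cells (limma, adjusted p = 0.000783). Between the matured fractions the difference of -1.05 ± 0.27 (limma, adjusted p = 0.0430) was lost in 12 of 20 alternative settings. P2rx5, another ATP-gated channel, was 1.41-fold higher in CCR7+Il12b- than in immature cells (0.50 ± 0.12; limma, adjusted p = 0.0123), without passing at 2 of 20 alternative settings, and it did not pass the test in CCR7+Il12b+ cells (0.10; limma, adjusted p = 0.597). The other genes of the list that were called, P2ry10b, P2ry12 and P2rx3, had group means below the mark throughout and were named after their values were seen.

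Among 14 measured ecto-enzymes of nucleotides and NAD, 1 was called higher and 4 lower in CCR7+Il12b+ than in immature cells, and 1 higher and 3 lower in CCR7+Il12b- than in immature cells. Beside them stand 14.1% higher and 17.9% lower of all genes in CCR7+Il12b+ cells, and 9.10% higher and 14.5% lower in CCR7+Il12b- cells. Enpp5, a member of the family of ecto-nucleotide pyrophosphatases, measured 4.76 and 5.52 in CCR7+Il12b+, 6.73, 6.72 and 5.17 in CCR7+Il12b-, and 7.47, 7.59 and 7.49 in immature samples. CCR7+Il12b- replicate 3 lay within the CCR7+Il12b+ range, away from its group. Enpp5 fell by 2.38 in CCR7+Il12b+ cells (limma, adjusted p = 0.000702) and by 1.32 in CCR7+Il12b- cells (limma, adjusted p = 0.0196), the second being lost in 3 of 20 alternative settings. The difference between the matured fractions was -1.07 (limma, adjusted p = 0.163), and -1.59 without CCR7+Il12b- replicate 3 (limma, adjusted p = 0.00122). Entpd4, a relative of CD39 that acts inside the Golgi and lysosomal compartments, rose instead, by 0.68 ± 0.14 in CCR7+Il12b+ cells (limma, adjusted p = 0.00336) and by 0.86 ± 0.13 in CCR7+Il12b- cells (limma, adjusted p = 0.000618). The remaining called genes of the list, named after their values were seen, were Enpp4 (CCR7+Il12b+ -1.46 and CCR7+Il12b- -1.20), Entpd5 (CCR7+Il12b+ -0.82 and CCR7+Il12b- -0.60) and Alpl (CCR7+Il12b+ -0.65).

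Of 20 measured genes of nucleoside transport and intracellular adenosine handling, 1 was called higher and 8 lower in CCR7+Il12b+ than in immature cells, and 0 higher and 6 lower in CCR7+Il12b- than in immature cells. The shares of all genes were 14.1% higher and 17.9% lower in CCR7+Il12b+ cells, and 9.10% higher and 14.5% lower in CCR7+Il12b- cells. Ampd3, an AMP deaminase that turns AMP into IMP inside the cell, measured 4.90 and 5.38 in CCR7+Il12b+, 5.78, 6.37 and 6.15 in CCR7+Il12b-, and 7.44, 7.97 and 7.85 in immature samples. No fraction overlapped with another. It fell by 2.62 ± 0.21 in CCR7+Il12b+ cells (limma, adjusted p = 3.42e-06) and by 1.66 ± 0.19 in CCR7+Il12b- cells (limma, adjusted p = 0.000108), and between the matured fractions it was -0.96 ± 0.21 (limma, adjusted p = 0.0200). The last of these was lost in 3 of 20 alternative settings, one of which left out CCR7+Il12b+ replicate 1 (-0.72, with 1 array left in that fraction). Ampd2, the second gene of the list called lower between the matured fractions and named after its values were seen, fell by 0.81 there (limma, adjusted p = 0.00550), by 1.65 in CCR7+Il12b+ cells against immature cells (limma, adjusted p = 4.45e-06) and by 0.84 in CCR7+Il12b- cells against immature cells (limma, adjusted p = 0.000555). Adenosine kinase, Adk, which returns adenosine to AMP, and Pnp, which degrades inosine, were likewise named after their values were seen. Adk lay below the mark in both matured fractions, and it was at least 1.66-fold lower than in immature cells in CCR7+Il12b+ cells (limma, adjusted p = 1.97e-05) and in CCR7+Il12b- cells (limma, adjusted p = 0.000214). Pnp fell by 0.82 in CCR7+Il12b+ cells (limma, adjusted p = 0.000379) and by 0.48 in CCR7+Il12b- cells (limma, adjusted p = 0.00843). The single riser was Slc29a2, an equilibrative nucleoside transporter, which was 0.54 ± 0.12 higher in CCR7+Il12b+ than in immature cells (limma, adjusted p = 0.00591). The remaining called genes of the list fell and were named after their values were seen. They were Nt5c3b (CCR7+Il12b+ -0.96 and CCR7+Il12b- -0.66), the transporter genes Slc29a1 (CCR7+Il12b+ -0.48) and Slc28a2 (CCR7+Il12b+ -0.57), and Adal (CCR7+Il12b+ -0.53 and CCR7+Il12b- -0.37). Slc28a2 and Adal had group means below the mark throughout.

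Among 11 genes linked to ATP release, Calhm2, which encodes a large-pore channel, was the only one called in CCR7+Il12b+ against immature cells. That is 9.09% of the list, against 32.0% of all genes. In CCR7+Il12b- against immature cells 1 was called higher and 1 lower, 18.2% against 23.6% of all genes. Between the matured fractions 0 were called, against 7.08% of all genes. Calhm2 measured 6.19 and 6.17 in CCR7+Il12b+, 6.63, 6.79 and 6.41 in CCR7+Il12b-, and 7.27, 7.38 and 7.51 in immature samples. The fractions did not overlap, and the fall was 1.21 ± 0.13 in CCR7+Il12b+ cells (limma, adjusted p = 3.89e-05) and 0.78 ± 0.12 in CCR7+Il12b- cells (limma, adjusted p = 0.000816). Between the matured fractions Calhm2 passed only without CCR7+Il12b- replicate 3 (main adjusted p = 0.0903; without it 0.0311; limma). Gja1, the connexin 43 gene, was called higher in CCR7+Il12b- cells (limma, adjusted p = 0.0489) with both means below the mark, and that call was lost in 13 of 18 alternative settings. Panx1, the pannexin channel through which cells release ATP, measured 5.69 and 5.99 in CCR7+Il12b+, 5.73 to 6.12 in CCR7+Il12b-, and 5.82 to 6.14 in immature samples, and all fractions overlapped.

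Although the adenosine receptors were not analysed here, 8 genes of the cAMP signalling that lies downstream of them, and of many other receptors, were measured. In CCR7+Il12b+ against immature cells 2 were called higher and 2 lower, beside 14.1% higher and 17.9% lower of all genes. In CCR7+Il12b- against immature cells 1 was called higher and 1 lower, 25% against 23.6% of all genes. Between the matured fractions 0 were called, against 7.08% of all genes. Crtc2, a coactivator of CREB, measured 10.56 and 10.28 in CCR7+Il12b+, 10.25 to 10.30 in CCR7+Il12b-, and 9.48 to 9.63 in immature samples. It rose by 0.87 ± 0.12 in CCR7+Il12b+ cells (limma, adjusted p = 0.000194) and by 0.72 ± 0.11 in CCR7+Il12b- cells (limma, adjusted p = 0.000665). Prkacb, a catalytic subunit of protein kinase A, fell by 1.02 ± 0.22 in CCR7+Il12b+ cells (limma, adjusted p = 0.00354) and by 0.75 ± 0.19 in CCR7+Il12b- cells (limma, adjusted p = 0.0153), the second being lost in 4 of 20 alternative settings. Creb1, which was 0.54 higher, and Crem, which was 0.46 lower, completed the calls of CCR7+Il12b+ against immature cells (limma, adjusted p = 0.00536 and 0.0289) and were named after their values were seen. The call of Crem was lost in 8 of 20 alternative settings.

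**Figure D3:**
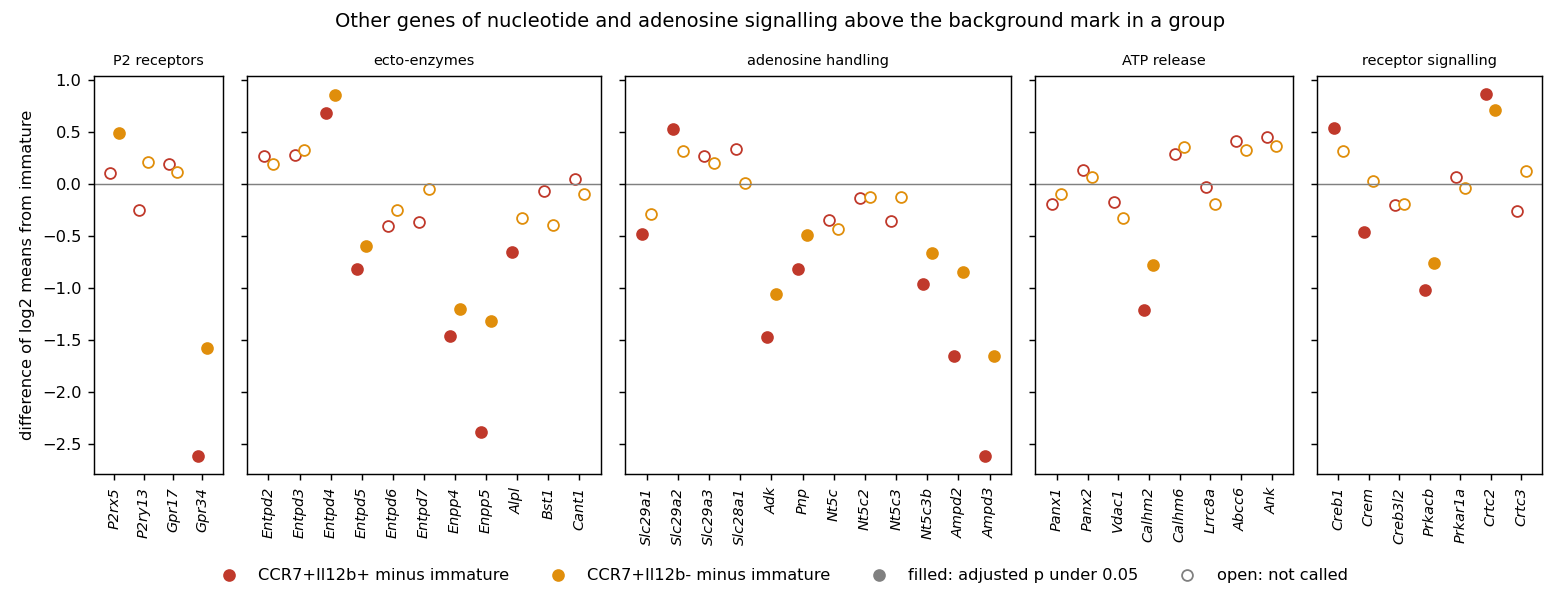
Log2 differences from immature cells for the 42 other genes of nucleotide and adenosine handling with a group mean above the background mark, 1 panel per list, with a point per gene and matured fraction and filled points for called genes. Ampd3, Gpr34 and Enpp5 have the lowest values in their panels, and most other genes lie within 1 log2 unit of 0.

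The genes of the whole table whose values ran most like those of the 3 falling members were found by the root mean square distance over the 8 arrays, after subtracting each gene's own mean. For Entpd1 these were Rab7b, a lysosomal GTPase (0.226 log2 units), Alox5ap, which assists leukotriene synthesis (0.257), and Naaa, a lysosomal amidase (0.268). Naaa is also among the XCR1+ dendritic cell markers described below. For P2ry14 they were again Rab7b (0.160) and Alox5ap (0.176), followed by Gcsam (0.190). For P2ry6 they were Tgfbi, an extracellular matrix protein (0.255), Nucb2 (0.349) and Tm6sf1 (0.352). Between the members themselves the distance was 0.269 for Entpd1 and P2ry14, 0.470 for Entpd1 and P2ry6 and 0.582 for P2ry14 and P2ry6. The distance is a description over arrays that fall into 3 fractions, and it was not tested.

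**Figure D4:**
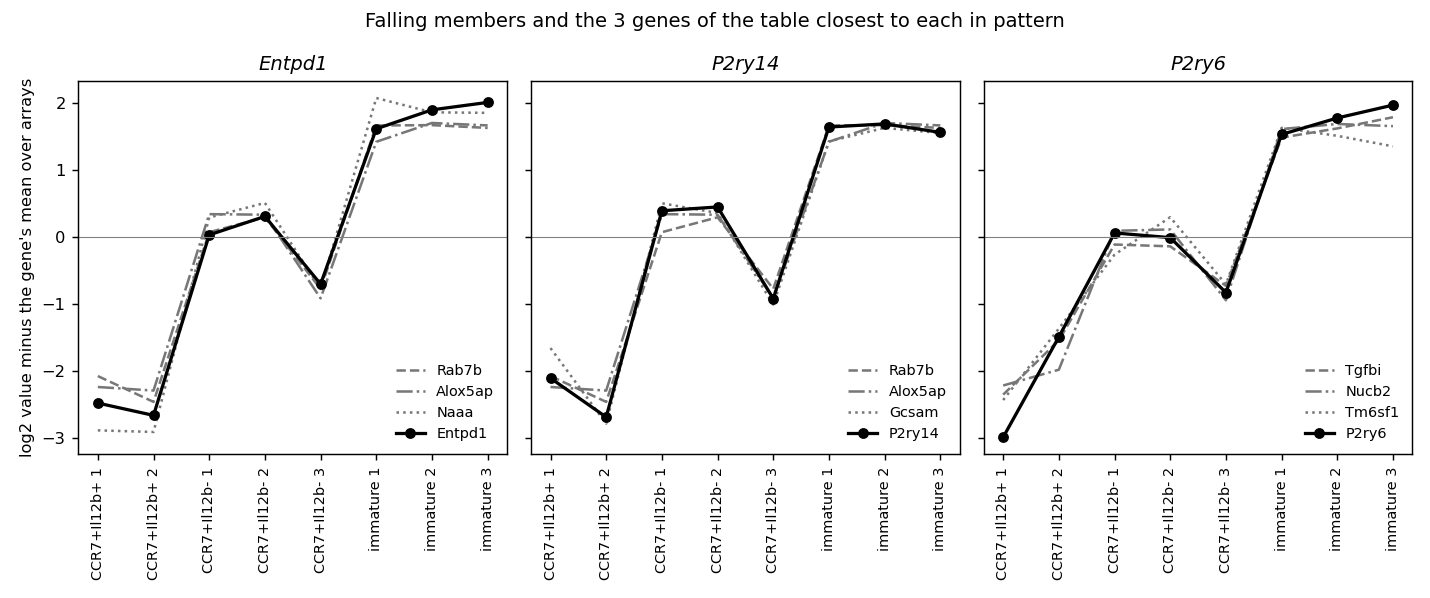
Log2 values minus each gene's mean over the 8 arrays for Entpd1, P2ry14 and P2ry6 and the 3 genes nearest to each by root mean square distance, 1 panel per member and a line per gene, with arrays grouped by fraction on the x axis. All lines are lowest in CCR7+Il12b+, intermediate in CCR7+Il12b- and highest in immature samples, and CCR7+Il12b- replicate 3 is the lowest of its group in each panel.

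Markers of other spleen cells were read beside these results. All 14 XCR1+ dendritic cell markers were above the background mark in every fraction, and their summed level on the log2 scale was 13.1 to 13.3 in CCR7+Il12b+, 13.7 to 14.01 in CCR7+Il12b- and 14.4 to 14.5 in immature samples. Of the 14, 1 was called higher and 11 lower in CCR7+Il12b+ than in immature cells (median -1.69). In CCR7+Il12b- against immature cells 1 was called higher and 8 lower (median -0.46). Between the matured fractions 0 were called higher and 10 lower (median -1.28). Among the lists that ran in the same order as Entpd1, P2ry14 and P2ry6, the NK cell list (3, 4 and 3 of 10 markers above the mark in the 3 fractions) summed to 7.96 to 8.02 in CCR7+Il12b+, 8.77 to 9.26 in CCR7+Il12b- and 9.50 to 9.65 in immature samples. Klrd1 (4.35 and 5.26 in CCR7+Il12b+, 6.62 to 7.67 in CCR7+Il12b- and 8.04 to 8.48 in immature samples) and Klrk1 (5.91 and 5.53, 6.71 to 7.81, and 8.15 to 8.41) carried that order. They were the 2 NK cell markers called lower in CCR7+Il12b+ than in immature cells, where 8 were not called and the median of the list was 0.11. In CCR7+Il12b- against immature cells 2 NK cell markers were called higher and 2 lower, with a median of 0.21. Ncr1 was below the mark on every array. The plasmacytoid dendritic cell list (8, 9 and 9 of 9 markers) summed to 9.94 to 9.98 in CCR7+Il12b+, 10.1 to 10.2 in CCR7+Il12b- and 10.4 to 10.6 in immature samples, with Siglech at 5.21 and 5.27, 5.24 to 5.57 and 6.61 to 6.71. Of its 9 markers, 0 were called higher and 5 lower in CCR7+Il12b+ than in immature cells, with 4 not called and a median of -0.46. In CCR7+Il12b- against immature cells 1 was called higher and 4 lower, with 4 not called and a median of 0.15. Between the matured fractions 0 were called higher and 2 lower. The part of NK cells and plasmacytoid dendritic cells in the results was not tested. The list of red pulp macrophages and monocytes (8, 10 and 8 of 14 markers) had overlapping sums, of 12.3 to 12.7 in CCR7+Il12b+, 12.3 to 12.8 in CCR7+Il12b- and 12.5 to 12.6 in immature samples. Hmox1 was the highest of the list on every array, at 10.94 to 11.80. Of the 14, 3 were called higher and 4 lower in CCR7+Il12b+ than in immature cells. In CCR7+Il12b- against immature cells 3 were called higher and 3 lower, and between the matured fractions 0 higher and 3 lower. Within that list Lyz2 ran down with maturation (7.02 and 7.92 in CCR7+Il12b+, 8.55 to 9.47 in CCR7+Il12b-, 10.49 to 10.70 in immature samples), while Spic ran up (10.42 and 9.93, 9.87 to 10.57, and 6.87 to 7.52), and their part was not tested either. Of the B cell list 8, 8 and 8 of 12 markers were above the mark, of the T cell list 4, 4 and 3 of 8, and of the platelet list 4, 4 and 4 of 6. Ms4a1, a B cell marker, was at 8.10 and 7.70 in CCR7+Il12b+, 8.28 to 8.91 in CCR7+Il12b- and 6.96 to 7.03 in immature samples. Fcrla (4.98 and 5.44, 5.45 to 5.94, and 6.72 to 7.01) and Cd22 (5.69 and 5.96, 6.41 to 6.49, and 6.67 to 6.84) were highest in immature samples instead. Of the 12 B cell markers, 1 was called higher and 3 lower in CCR7+Il12b+ than in immature cells. In CCR7+Il12b- against immature cells 3 were called higher and 1 lower. Cd79a, Cd3d and Pf4 were below the mark on all arrays. Cd79b and Cd3e were above it on all arrays, and the part of these lists in the results was not tested. The summed levels of the B cell list were 9.35 to 9.40, 9.69 to 10.1 and 9.32 to 9.48 in the same order of fractions, of the T cell list 7.79 to 8.05, 8.15 to 8.26 and 8.06 to 8.12, and of the platelet list 7.77 to 8.11, 7.83 to 7.94 and 7.64 to 7.73. The neutrophil list summed to 7.96 to 8.03, 7.90 to 8.11 and 7.70 to 8.01, the CD11b+ dendritic cell list to 10.7 to 10.8, 10.9 to 10.98 and 10.7, and the stroma and endothelium list to 8.45 to 8.77, 8.58 to 8.63 and 8.82 to 8.88.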

How the data were processed

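RNA of 8 sorted samples was hybridised to 1 array each. Per the labels' protocols, 3 or 20 ng of RNA was amplified in 2 rounds, and the sources used here do not say which sample had which input. The authors deposited log2 values for each probe set, which the submitters' processing notes trace to RMA in oligo. RMA commonly equalises array distributions, so a change in total RNA per cell cannot be seen.

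Of 35556 rows, 21789 had 1 gene symbol in the platform annotation, 1621 had several and 12146 had none in the table used. Rows with several or none were left out. A total of 19938 genes remained, of which 999 had several rows and were read from the row highest on average. No filter on low values was applied before testing, and 12925 genes had a group mean above the background mark. Olfactory and vomeronasal receptor genes had median differences of 0.0995, 0.0981 and 0.0108 in the 3 comparisons. All columns were used.

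All 8 arrays entered 1 model of 3 group means in limma 3.58.1 (R 4.3.3; lmFit and eBayes; 5 residual and 5.86 prior degrees of freedom), tested on simulated data first. Tests were two-sided. Whether replicates are separate mice is not stated in the labels, and p-values therefore cover the spread between these samples, possibly a technical one. Precision is limited by how few arrays there are.

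The members, gene lists and marker lists were chosen with earlier results of these data known. The rule for named genes took all members, the called gene with the largest change in each direction, list and comparison, and the 3 nearest genes of the 3 members with the widest range of group means. Any other gene is said to be named after its values were seen, apart from Panx1, the sort genes and the markers. Alternatives left out each array in turn, or changed the replicate block, normalization, filter, weights, prior, groups in the fit, row choice or range of rows fitted and adjusted over.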

Additional observations from a re-analysis of the deposited data

How the results depend on the processing

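Results were recomputed under 20 alternatives, or 18 for Nt5e, Gja1, P2ry12 and P2ry10b and 19 for P2rx3, which the filters on low values removed. Entpd1 and P2ry14 stayed called in all 3 comparisons under all 20, with log2 differences of -4.52 to -4.27, -2.17 to -1.67 and -2.74 to -2.23 for Entpd1 and of -4.31 to -3.73, -1.89 to -1.21 and -2.81 to -2.08 for P2ry14 (CCR7+Il12b+ minus immature, CCR7+Il12b- minus immature, and between the matured fractions). P2rx7 stayed called against immature cells under all 20. P2ry6 did so too, while between the matured fractions its call was also lost when all rows entered both the fit's variance prior and the adjustment (limma, adjusted p = 0.0682). The number of members called ranged from 4 to 6, 4 to 5 and 2 to 3. Genes called between the matured fractions numbered 1412, against 712 to 1771 with 1 array left out and 566 with all rows in the prior and the adjustment.

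Some differences that were not called changed sign. With 1 array left out, Nt5e ranged from -0.27 to 0.17, -0.014 to 0.25 and -0.39 to 0.056 in the 3 comparisons, and P2ry10 from -0.55 to 0.11, -0.24 to 0.034 and -0.46 to 0.20. P2ry10 in CCR7+Il12b- against immature cells was 0.053 after cyclic loess and 0.028 after quantile normalization. With 1 array left out, P2rx5 in CCR7+Il12b+ against immature cells ranged from -0.0036 to 0.19, Crem in CCR7+Il12b- against immature cells from -0.076 to 0.12, and between the matured fractions P2rx3 ranged from -0.38 to 0.11 and P2ry12 from -0.010 to 0.19. Crem in CCR7+Il12b- against immature cells was -0.029 after median centring and -0.035 with array weights. The causes were not tested.

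Same-numbered samples had correlations of their deviations from the group means between -0.169 and 0.216, and other pairs between -0.216 and 0.187. Deviations within a group of 2 or 3 arrays cancel out, so these values cannot decide whether the replicate numbers pair the samples. With a fixed replicate block, 4, 4 and 3 members were called, and the calls of Ada and Crem in CCR7+Il12b+ cells (adjusted p = 0.105 and 0.0612) and of P2rx4, Gja1 and P2ry10b in CCR7+Il12b- cells (adjusted p = 0.0523, 0.0832 and 0.0740) against immature cells were lost in limma. The random replicate block had a correlation of -0.073. With 2 or 3 arrays per fraction and values near the mark for Nt5e, small changes could not be seen.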
